A study of Gallus gallus with 45 samples.

Results

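A set of 9 genes was followed as a group here, and they are the transcription factors and cofactors of the preplacodal region and non-neural ectoderm: DLX3, DLX5, DLX6, SIX4, EYA1, EYA2, GATA2, GATA3 and IRX1. They were chosen by name, as the rows of the deposited expression table that carry these symbols. Their measured values did not enter that rule, but earlier results of these data were known when the set was chosen. All 9 have a row among the 18525 genes of that table, from which genes that never exceeded 5 reads had been removed. The question the series allows is how the level of each gene changed over 12 stages, from gastrula to early crest migration, in tissue cut from the border between neural plate and future epidermis.

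At the edge of the neural plate, cells with overlapping expression of neural and non-neural genes give rise to neural crest, to the sensory placodes and to epidermis. The non-neural side is marked early by factors that respond to bone morphogenetic protein signals, among them the GATA and DLX proteins. SIX4 and related homeodomain proteins, with their EYA cofactors, mark the preplacodal region, the band from which lens, ear, nose and cranial sensory ganglia arise. These genes are known from the tissue beside the crest, but not only from there, and several of them also act in mesoderm or endoderm.

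The libraries were bulk RNA-seq of midbrain-level neural plate border and neural crest from wild-type, untreated chick embryos, each made from tissue pooled from several embryos. The 45 libraries covered HH5, HH6 and each somite stage from 1ss to 10ss, and each stage had 4 libraries except for 6ss, 8ss and 10ss, which had 3 (HH, Hamburger and Hamilton stage; ss, somite stage). Stages were also pooled into periods: HH5 (4 libraries), HH6 (4), HH7 (1ss to 3ss, 12), HH8 (4ss to 6ss, 11), HH9 (7ss to 9ss, 11) and HH10 (10ss, 3). The piece that was cut changed with age: patches lateral to the primitive streak at HH5 and HH6, neural plate borders or the apices of the neural folds at the next stages, and, after 7ss, the dorsal neural tube together with crest out to the migratory front. A change of tissue and a change of expression cannot be told apart between those dissections, and in bulk tissue fewer expressing cells and less RNA per cell cannot be told apart at all.

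Each library held 15.4 to 30.5 M reads assigned to genes (M, megareads), with a median of 22.9 M. The methods of the study state a higher range of mapped reads per library, and the source of that gap was not tested. Levels are given as CPM, the reads of a gene per M reads of its library, scaled by the trimmed mean of M values (TMM), and they are not divided by gene length, so they are compared between stages and not between genes. The tissue carried its label: the summed level of 8 neural crest markers had a median of 1320 CPM at HH10 and 313 CPM at HH5. All 8 were called higher at HH8 than at HH7, where 4.5% of all genes tested were. Markers of other tissues were detected too. The 5 endoderm markers summed to 3.18 to 6.09 CPM in HH10 libraries and 81.5 to 121 CPM in HH5 libraries, and the 4 heart markers to 1.46 to 4.84 CPM at HH10 and 66.1 to 115 CPM at HH5. HH6 replicate 1 stood apart from the other HH6 libraries, with 63.9 CPM of endoderm markers (others 22.2 to 25.3) and 148 CPM of heart markers (others 15.3 to 61.7). Libraries numbered 4 also resembled each other across stages. Comparisons that use HH6 are given without that library where its absence moved a call or the size of the change, and correlations within stages without either set where they moved. In the comparisons of periods, the libraries numbered 1 to 3 alone changed 1 call, that of DLX3 at HH8 against HH7.

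Of the 9 genes, 7 changed somewhere in the series (edgeR quasi-likelihood F test over the 12 stages, Benjamini-Hochberg adjusted p below 0.05), against 43.7% of all genes tested. The adjusted p was 1.5e-18 for GATA3, 4.2e-15 for GATA2, 2.3e-06 for IRX1, 4.7e-06 for EYA2, 0.00037 for DLX3 and 0.013 for both DLX5 and SIX4. DLX6 and EYA1 did not pass, each with an adjusted p of 0.58. The extent of change differed widely, since the highest stage mean was 29.6 times the lowest for GATA3 and 24.2 times for GATA2, but 4.64 times for IRX1, 3.73 for DLX3, 3.42 for SIX4, 2.57 for EYA1, 2.32 for EYA2, 2.21 for DLX5 and 1.83 for DLX6. The share of the variance of log2 CPM that lay between stages was 94% for GATA3 and 88.7% for GATA2, and 27.7% for EYA1 and 18.6% for DLX6.

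**Figure D1:**
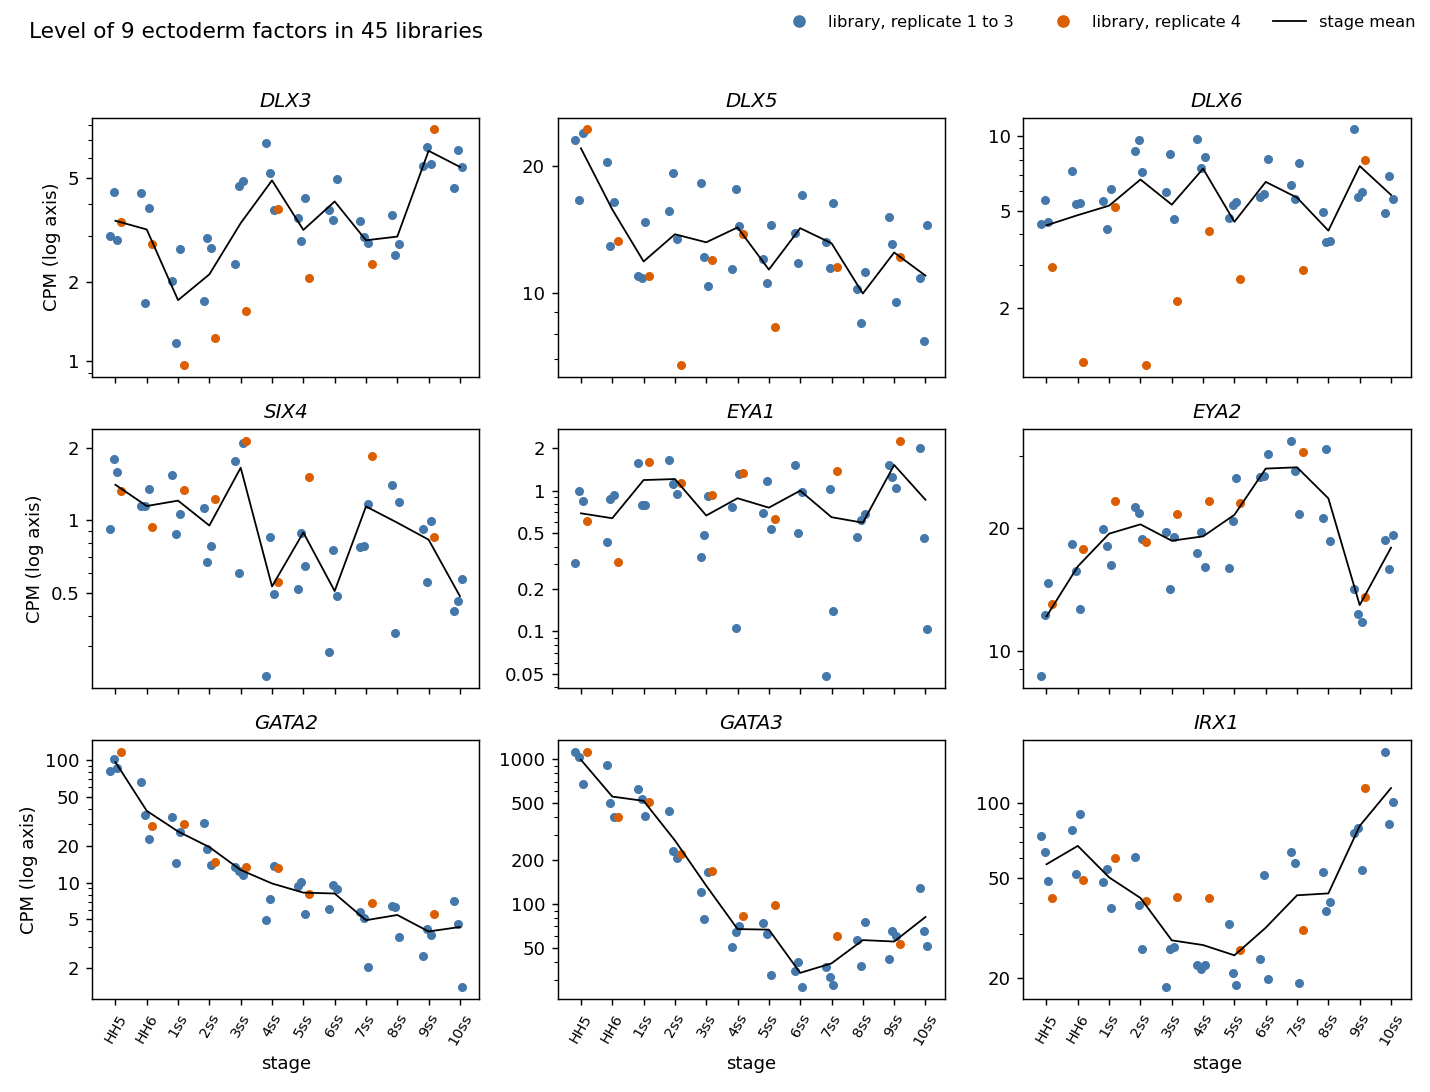
Level of each of the 9 genes in the 45 libraries, in CPM on a log axis whose range differs between panels, against stage from HH5 to 10ss. Points are libraries (orange for those numbered 4) and the line joins the stage means. GATA2 and GATA3 descend over most of the series, IRX1 dips to 24.6 CPM at 5ss and reaches 114 CPM at 10ss, and the orange points of DLX6 lie lowest at 7 of the 9 stages that have one.

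Between periods a gene was called when its adjusted p was below 0.05 over all genes tested and its log2 fold change was beyond 0.75 in either direction. At HH8 against HH7, 1 member was higher (DLX3) and 3 were lower (SIX4, GATA2 and GATA3), where 4.5% and 2.83% of all genes tested were called. The methods describe the pieces of both periods together, as neural plate borders or apices of the neural folds. The mesoderm list had a median of 36.3 CPM at HH8 and 108 CPM at HH7, and the part of a change of tissue in these calls was not tested. At HH9 against HH8, IRX1 was higher and GATA2 lower, with 3.5% and 3.57% of genes called. At HH10 against HH5, 4 members were lower (DLX5, SIX4, GATA2 and GATA3) and none higher, with 9.8% and 7.2% of genes called. There 2 members were higher at an unadjusted p below 0.05, DESeq2 called 1 of them (IRX1), and the median log2 fold change of the 9 was 0.35, opposite in sign to the 4 calls, against -0.065 over all genes. At HH10 against HH7, DLX3 and IRX1 were higher, and SIX4, GATA2 and GATA3 lower, with 6.48% and 6.06% of genes called. The edgeR fit of periods called no member at HH6 against HH5 (1.3% of genes called), HH7 against HH6 (1.02%) or HH10 against HH9 (0.329%). At an unadjusted p below 0.05 there were 2, 3 and 2 members in these comparisons, and DESeq2 called 1, 1 and 0. The percentages above belong to the adjusted calls of the edgeR fit of periods. Shares of all genes at an unadjusted p or under DESeq2 are not given, so these counts cannot be set against them. With 12 stages as groups, edgeR called GATA2 lower at HH6 against HH5 (1.02% of genes called lower), and GATA2 and GATA3 lower at HH7 against HH6. It also called IRX1 higher at HH10 against HH9. For the last comparisons, HH7 against HH6 and HH10 against HH9, the share of all genes in that fit is not given. Comparisons that have a period in common share its libraries.

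**Figure D2:**
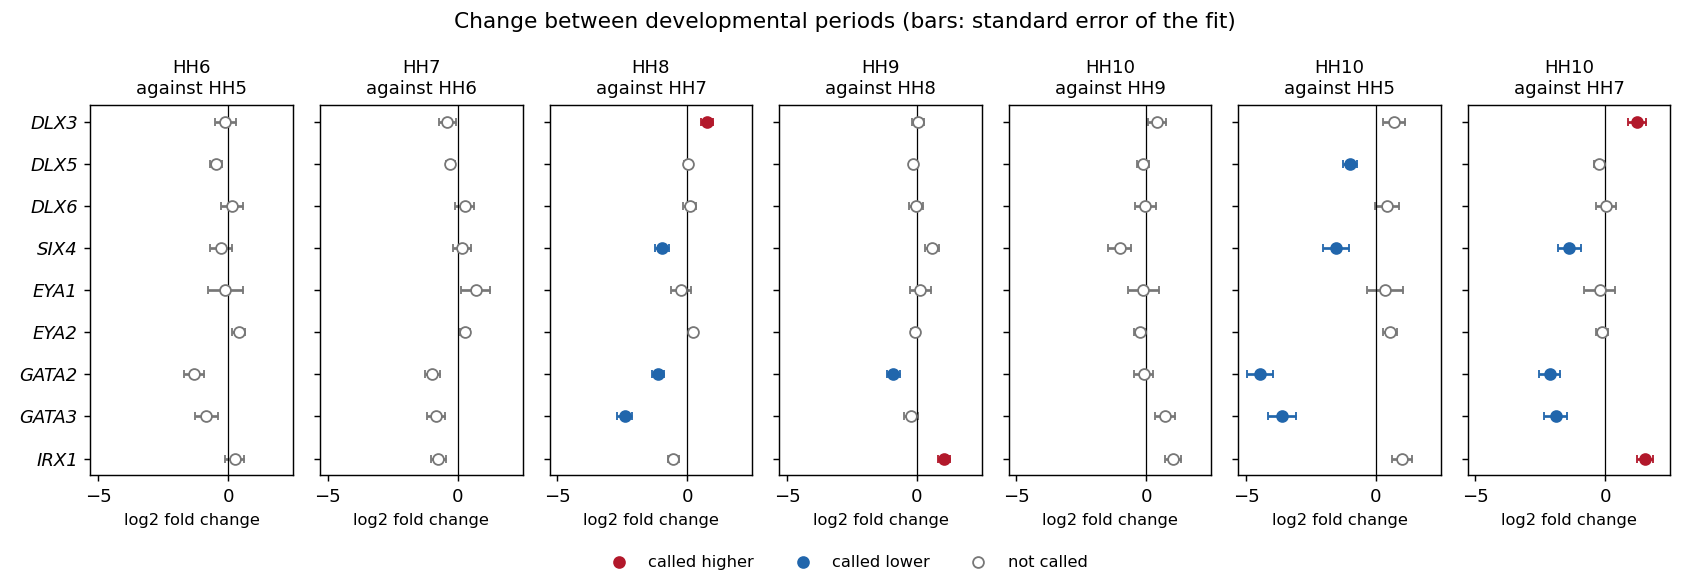
Fitted log2 fold change of each gene in 7 comparisons of periods, the later period over the earlier one, with bars for the standard error. Filled points were called higher (red) or lower (blue), and open points were not called. The points furthest from 0 are GATA2 (-4.46) and GATA3 (-3.60) at HH10 against HH5, while DLX6 and EYA1 are open in every panel.

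GATA3 (ENSGALG00000029270), a zinc finger factor of the early non-neural ectoderm that also acts in other tissues, had the widest range of the group. The HH6 libraries held 917, 496, 397 and 397 CPM, against 1120, 1042, 672 and 1124 CPM in HH5 libraries. Among the HH6 libraries, replicate 1 alone reached into the HH5 range. The difference did not pass (log2 -0.84 ± 0.43, adjusted p 0.39), and without that library it was -1.22, called in the fit of 12 stages (adjusted p 0.017) and not in the fit of periods (0.15). The stage means were then 515 CPM at 1ss, 275 at 2ss, 134 at 3ss and 67.1 at 4ss, with a minimum of 33.5 CPM at 6ss. From there the mean was higher again at each stage but 9ss, and the 10ss libraries held 128, 65 and 51 CPM, all above the 3 libraries at 6ss (34.2, 39.5 and 26.6 CPM).

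GATA3 fell between HH7 and HH8. The lowest, median and highest HH8 libraries had 26.6, 61.7 and 98.3 CPM, against 78.9, 226 and 618 CPM in HH7 libraries, so that the ranges overlapped only from 78.9 to 98.3 CPM. The fitted log2 fold change was -2.41 ± 0.27 (standard error), a 5.33-fold lower level, with an adjusted p of 1.1e-08. At HH10 against HH5 the level was 12.2-fold lower (log2 -3.60 ± 0.54, adjusted p 1.7e-06), and no HH10 library reached any HH5 library. At HH10 against HH9 the means were 81.3 ± 41.0 and 49.5 ± 15.5 CPM (SD, n = 3 and 11), and the difference did not pass (log2 0.72 ± 0.38, adjusted p 0.51).

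GATA2 (ENSGALG00000005909), the close relative of GATA3 that is expressed with it in the early non-neural ectoderm and is best known as a blood progenitor factor, had its lowest stage mean at 9ss (3.99 CPM) and its highest at HH5 (96.6 CPM). The HH6 libraries held 66.7, 35.8, 22.8 and 29.2 CPM, against 81.5, 102, 86.1 and 117 CPM in HH5 libraries. All HH6 libraries were below all HH5 libraries, although replicate 1 came close. The 2.5-fold lower level missed the threshold in the fit of periods (log2 -1.32 ± 0.38, adjusted p 0.053) and passed it in the fit of 12 stages (adjusted p 0.029). Without HH6 replicate 1 the log2 fold change was -1.74 and the fit of periods called it too, with an adjusted p of 0.0085. At HH7 against HH6 the log2 fold change was -0.99 ± 0.29 (adjusted p 0.064), and without HH6 replicate 1 it was -0.58 (adjusted p 0.46). DESeq2 called this comparison (adjusted p 0.043).

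GATA2 fell again at later periods. The HH8 libraries ranged from 5.00 to 13.8 CPM with a median of 8.86, against 11.5 to 34.6 CPM with a median of 14.5 in HH7 libraries (log2 -1.14 ± 0.23, adjusted p 0.00035). The HH9 libraries ranged from 2.05 to 6.83 CPM with a median of 5.12, again lower than HH8 (log2 -0.90 ± 0.23, adjusted p 0.0058). Each of these pairs of ranges overlapped. The 3 HH10 libraries had 7.07, 4.56 and 1.40 CPM, and the level at HH10 was 22-fold lower than at HH5 (log2 -4.46 ± 0.49, adjusted p 2.2e-09) with no overlap.

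The ratio of the GATA genes varied over the stages. The log2 ratio of GATA3 to GATA2 was 3.34 ± 0.34 at HH5, 4.35 ± 0.58 at 1ss, 2.04 ± 0.45 at 6ss (n = 3) and 4.39 ± 0.69 at 10ss (n = 3; SD, n = 4 unless given). Its range at 6ss, 1.58 to 2.49, lay below its range at 1ss, 3.96 to 5.22, and below its range at 10ss, 3.83 to 5.16. This ratio is given as a description of these libraries and was not tested.

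Summed markers of surface ectoderm, mesoderm, endoderm and heart were lower at HH10 than at HH5, as the GATA genes were. The blood and vessel list had medians of 32.3 CPM at HH10 and 34.1 CPM at HH5. The placode list had a higher median at HH10 (107 CPM) than at HH5 (69.3 CPM), with 53.1 CPM at HH8 and 125 CPM at HH9. Of its 6 markers 2 were called higher and 3 lower at HH10 against HH5, where 7.2% and 9.8% of all genes tested were. The surface ectoderm list (7 of 9 markers matched) summed to 315 to 409 CPM at HH10 and 737 to 1040 CPM at HH5. Of its markers 5 were called lower at HH10 against HH5 and 1 higher, where 9.8% and 7.2% of all genes tested were. Mesoderm markers summed to 30.0 to 90.0 CPM at HH10 and 103 to 229 CPM at HH5, and TBX6 was at or below 3 reads in every HH10 library. Endoderm markers had medians of 106 CPM at HH5, 12.4 at HH7, 5.32 at HH8 and 3.47 at HH10. Within stages, the deviation of GATA2 from its stage mean correlated with that of the heart list (Pearson r = 0.619 over 45 libraries), the mesoderm list (0.583) and the endoderm list (0.352), but not positively with the surface ectoderm list (-0.274). For GATA3 the values were 0.446 for heart, 0.306 for mesoderm, 0.471 for endoderm and -0.125 for surface ectoderm. Without HH6 replicate 1 (44 libraries) they were 0.561, 0.582, 0.233 and -0.384 for GATA2 in the order heart, mesoderm, endoderm and surface ectoderm. For GATA3 in that order they were then 0.325, 0.286, 0.362 and -0.235. With the blood and vessel list, r over 45 libraries was 0.375 for GATA2 and 0.31 for GATA3. Without HH6 replicate 1 these were 0.314 and 0.235. In the 36 libraries numbered 1 to 3 they were 0.538 and 0.426. The part of mesoderm, endoderm, and blood and vessel tissue in the GATA levels was not tested.

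**Figure D3:**
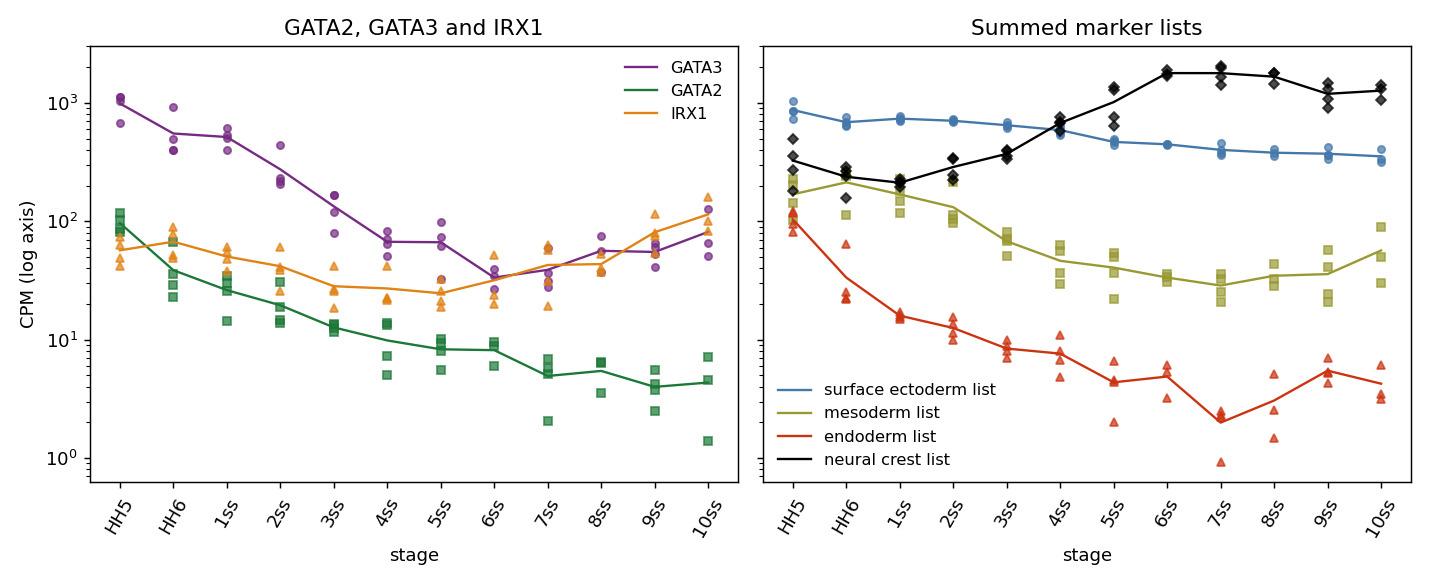
Left, CPM of GATA3, GATA2 and IRX1 by stage; right, summed CPM of the surface ectoderm, mesoderm, endoderm and neural crest marker lists by stage, on the same log axis. Points are libraries and lines join stage means. GATA3 descends to 67.1 CPM at 4ss and GATA2 to 9.85 CPM. The surface ectoderm list descends less (medians of 474 CPM at HH8 and 853 CPM at HH5). The endoderm list descends from HH5 on (medians of 106 CPM at HH5, 23.9 at HH6 and 5.32 at HH8). The mesoderm list has a higher median at HH6 (243 CPM) than at HH5 (172 CPM), and a median of 36.3 CPM at HH8.

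IRX1 (ENSGALG00000030991), an Iroquois homeodomain factor used in regional patterning of ectoderm and neural tube, followed a U-shaped course. Its stage mean was 56.8 CPM at HH5 and 67.3 at HH6, 24.6 at 5ss, 80.8 at 9ss and 114 at 10ss. The HH9 libraries ranged from 19.2 to 115 CPM with a median of 53.8, against 18.8 to 51.5 CPM with a median of 22.5 in HH8 libraries. The level was 2.07-fold higher at HH9 (log2 1.05 ± 0.22, adjusted p 0.00067), although the ranges overlapped. The 10ss libraries had 160, 82.6 and 101 CPM, above every HH7 library (18.4 to 61.0 CPM; log2 1.51 ± 0.30, adjusted p 0.00021). They were also above all 4 HH5 libraries (73.5, 63.4, 48.7 and 41.7 CPM), but that difference missed the threshold (log2 1.01 ± 0.39, adjusted p 0.055; DESeq2 gave an adjusted p of 0.044). The earlier descent was not called in any comparison of neighbouring periods, with log2 -0.74 ± 0.28 at HH7 against HH6 (adjusted p 0.17; -0.66 and 0.39 without HH6 replicate 1) and -0.55 ± 0.22 at HH8 against HH7 (adjusted p 0.078). The upper end of the course lies after 7ss, when the dissected piece also held migrating crest.

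The DLX genes, homeodomain factors of the non-neural ectoderm and preplacodal region, did not all move together over the stages. Over the 12 stage means r was 0.554 for DLX3 and DLX6, 0.0272 for DLX3 and DLX5, and -0.112 for DLX5 and DLX6. DLX3 (ENSGALG00000040529), a factor of epidermis and placodes, was highest at 9ss, with 5.56, 6.57, 5.67 and 7.69 CPM, and lowest at 1ss, with 2.02, 1.17, 2.68 and 0.966 CPM. The HH8 libraries ranged from 2.08 to 6.80 CPM with a median of 3.79, against 0.966 to 4.87 CPM with a median of 2.19 in HH7 libraries. Its log2 fold change of 0.76 ± 0.24 (adjusted p 0.025) lay just inside the threshold on size, and the call was lost in the libraries numbered 1 to 3 alone (log2 0.64, adjusted p 0.078). It was also lost without any 1 of 9 libraries (1ss replicates 1, 2 and 4, 2ss replicates 1 and 4, 3ss replicate 4, 4ss replicates 1 and 2, and 6ss replicate 3), with log2 values from 0.66 to 0.74. At HH10 the libraries held 4.60, 6.44 and 5.54 CPM, a 2.3-fold higher level than at HH7 (log2 1.20 ± 0.34, adjusted p 0.0097), and 2 of the 12 HH7 libraries (3ss replicates 2 and 3) lay above the lowest of them. That call was lost without 10ss replicate 2 (log2 1.08, adjusted p 0.076).

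DLX5 (ENSGALG00000009129) and DLX6 (ENSGALG00000023195) are neighbouring genes in the RefSeq annotation (GRCg7b), and in mouse they share enhancers. The 3 HH10 libraries had 10.8, 7.69 and 14.5 CPM of DLX5, all below the 4 HH5 libraries, which had 23.0, 16.6, 24.0 and 24.4 CPM and the highest stage mean. The log2 fold change at HH10 against HH5 was -1.0 ± 0.26 (adjusted p 0.0039), and without 10ss replicate 2 it was -0.80 and not called (adjusted p 0.053). From 1ss on, the stage means of DLX5 stayed between 9.97 and 14.3 CPM, and no comparison among those periods called it. DLX6 had stage means between 4.14 and 7.58 CPM with no call in any comparison, and its log2 fold change at HH10 against HH5 was 0.41 ± 0.46. The log2 ratio of DLX5 to DLX6 was 0.74 ± 0.31 at 9ss and 2.35 ± 0.60 at HH5 (SD, n = 4 each), as a description.

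DLX6 was the member most tied to the libraries numbered 4. The number 4 library was the lowest in DLX6 at 7 of 9 stages and the highest at none, for example with 1.18 CPM at 2ss, where the others had 8.70, 9.68 and 7.18 CPM. It was also the lowest in DLX3 at 5 of 9 stages. For GATA3 the number 4 library was the highest at 5 of 9 stages and the lowest at none.

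EYA2 (ENSGALG00000004508), a transcriptional coactivator and phosphatase that works with homeodomain proteins such as SIX4, had its highest stage mean late in the series, at 7ss. Its stage mean was 12.1 CPM at HH5, 19.3 at 1ss, 21.5 at 5ss and 28.1 at 7ss, then 23.6 at 8ss, 12.9 at 9ss and 17.9 at 10ss. The 9ss libraries had 14.1, 12.3, 11.7 and 13.6 CPM, against 21.1, 31.1 and 18.6 CPM in the 8ss libraries. All 9ss libraries were lower than all 8ss libraries. This step was called (log2 -0.87 ± 0.19, adjusted p 0.021), where 0.372% of all genes were called lower, and the call was lost without 8ss replicate 2 (log2 -0.62, adjusted p 0.21) or without 9ss replicate 1 (adjusted p 0.071). EYA2 was called in none of the 7 comparisons of periods. HH9 pools 7ss to 9ss, and its libraries ranged from 11.7 to 32.7 CPM.

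EYA1 (ENSGALG00000043033), a coactivator of the same family, was near the limit of detection. It had between 1 and 58 reads per library, and 41 of the 45 libraries held more than 3 reads. Its stage means lay between 0.59 and 1.52 CPM. Libraries of one stage differed as much as stages did, with 0.0483, 1.02, 0.14 and 1.38 CPM at 7ss and 2.02, 0.46 and 0.104 CPM at 10ss. No change in EYA1 was detected at this depth and spread. Its standard errors of 0.39 to 0.70 on the log2 scale were the largest of the group in 7 of 7 comparisons, so changes of that size could have been missed.

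SIX4 (ENSGALG00000017389) needs care over its name. The libraries do not keep the strand of the RNA, so reads of overlapping genes cannot be told apart, and in RefSeq (GRCg7b) EYA2, GATA3 and IRX1 overlap long non-coding RNAs and this row overlaps a protein-coding gene. The row has the symbol SIX4, its description in the same table is that of SIX5, and RefSeq (GRCg7b) calls the gene with this identifier SIX5. SIX4 and SIX5 are related homeodomain factors of placodes and muscle, and the row is called SIX4 below as in the table. It was low throughout, with 5 to 48 reads per library. The 10ss libraries had 0.418, 0.46 and 0.57 CPM, against 0.916, 1.79, 1.58 and 1.32 CPM in HH5 libraries, with no overlap (log2 -1.53 ± 0.50, adjusted p 0.021). The HH8 libraries ranged from 0.225 to 1.51 CPM with a median of 0.554, against 0.600 to 2.14 CPM with a median of 1.17 in HH7 libraries (log2 -0.96 ± 0.26, adjusted p 0.0093). HH10 was also lower than HH7 (log2 -1.39 ± 0.44, adjusted p 0.024). The 2 calls at HH10 rest on few libraries: the one against HH5 was lost without HH5 replicate 2, 10ss replicate 1 or 10ss replicate 2 (adjusted p 0.053, 0.079 and 0.069), and the one against HH7 without any 1 of the 3 10ss libraries (adjusted p from 0.054 to 0.11).

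Steps of a single stage gave few calls. Over 11 steps and 9 genes, 2 steps were called, GATA2 at HH6 against HH5 and EYA2 at 9ss against 8ss, both lower. The GATA2 step was lost without any 1 of 6 libraries (HH5 replicates 1, 2 and 4 and HH6 replicates 2, 3 and 4), with log2 values from -1.14 to -1.40 and adjusted p from 0.053 to 0.16. Over all genes 0.265% of such tests were called, and 1.02% were called lower at HH6 against HH5. The descent of GATA3 was spread over several steps: log2 -0.91 ± 0.31 at 2ss against 1ss, -1.04 ± 0.31 at 3ss against 2ss, -1.0 ± 0.31 at 4ss against 3ss and -0.99 ± 0.34 at 6ss against 5ss. None of these was called (adjusted p between 0.23 and 1). No upward step was called in the reported edgeR fit of 12 stages, and 5 had an unadjusted p below 0.05. The share of all genes by steps at that unadjusted p is not given. DLX3 at 9ss against 8ss had 2.13 times the level and no overlap between the libraries (log2 1.09 ± 0.36, adjusted p 0.14), and DESeq2 called it (log2 1.07, adjusted p 0.049).

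The closest relatives of these genes were examined as a list, of which 16 of 18 had a row. At HH8 against HH7, 6 of the 16 were called lower (among them IRX2, IRX6, GATA5 and GATA6), where 2.83% of all genes were. None was called higher (0 at an unadjusted p below 0.05), where 4.5% of all genes were. The median log2 fold change of the list was -0.63, against 0.021 over all genes. EYA3, a broadly expressed EYA gene, averaged 162 CPM at HH8 and 179 CPM at HH7 and was not called (adjusted p 0.25). SIX2, EYA4, DLX1 and DLX2 each averaged at most 0.307 CPM in both periods. At HH10 against HH5, 6 of the 16 were lower (among them DLX2, GATA4, GATA5 and GATA6) and none higher (0 at an unadjusted p below 0.05). Over all genes 9.8% were called lower and 7.2% higher there. GATA5, a factor of heart and endoderm, averaged 1.71 CPM at HH10 and 231 CPM at HH5 (log2 -7.07 ± 0.96, adjusted p 2.6e-07).

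Further genes of the preplacodal region and surface ectoderm (32 of 36 with a row) moved in both directions. At HH8 against HH7, 9 were called higher, 7 lower and 16 not called, where 4.5% of all genes were called higher and 2.83% lower. This list overlaps the neural crest list and the neural plate and tube list. Genes shared with each, among them PAX6, were among the 9 called higher, and the part of those tissues was not tested. The median log2 fold change of the list was -0.40. PAX2, a factor of the ear placode and also of the midbrain-hindbrain boundary, averaged 26.7 CPM at HH8 and 2.95 CPM at HH7 (log2 3.17 ± 0.35, adjusted p 8.2e-09). PAX6, a factor of lens and neural tube, averaged 38.4 and 10.1 CPM in the same periods (log2 1.92 ± 0.21, adjusted p 8e-09), and FOXI1, a factor of ear placode derivatives, held more than 3 reads in 6 of 11 HH8 libraries and 1 of 12 HH7 libraries. On the lower side, FOXI3, an early preplacodal factor, averaged 1.92 CPM at HH8 and 5.69 CPM at HH7 (log2 -1.56 ± 0.24, adjusted p 9.2e-06). KRT18, a keratin of simple epithelia, averaged 13.8 and 32.7 CPM (log2 -1.25 ± 0.18, adjusted p 2.3e-06). VGLL2, a cofactor of TEAD proteins, was called lower and had at most 4 reads in any HH8 library.

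In 3 further comparisons fewer genes of this list were called higher than lower. At HH9 against HH8, 2 genes were higher (FOXI2 and PAX2) and 5 lower, where 3.5% and 3.57% of all genes were. At HH10 against HH7, 8 were higher and 13 lower, where 6.48% and 6.06% of all genes were. At HH10 against HH5, 7 were higher and 15 lower (7.2% and 9.8% of all genes), with a median log2 fold change of -0.83, against -0.065 over all genes. The genes with the largest differences that were lower included KRT18, at 10.9 CPM at HH10 and 117 CPM at HH5, and those higher at HH10 than at HH5 were PAX2 (60.3 and 4.03 CPM), PAX6 (49.0 and 3.31 CPM) and FOXI2 (16.0 and 1.59 CPM). VGLL2 and FOXE3, which were also lower, were at 1 read or none in every HH10 library.

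Within stages some of the members varied together. For each gene the deviation of log2 CPM from its stage mean was correlated between genes over the 45 libraries, which share depth and dissection, so the values are descriptions without a test. The DLX genes varied together, with r = 0.552 for DLX5 and DLX6, 0.545 for DLX3 and DLX6 and 0.308 for DLX3 and DLX5. In the 36 libraries not numbered 4 these were 0.278, 0.383 and 0.0422, so that part of the first values rests on the 9 libraries numbered 4. GATA2 and GATA3 (r = 0.579), GATA3 and IRX1 (0.428) and GATA2 and IRX1 (0.398) also varied together, with 0.574, 0.498 and 0.404 in those 36 libraries. These were not closed sets. EYA1 had 0.453 with GATA2 and 0.331 with GATA3, and SIX4 had 0.426 with GATA3 but 0.0943 with GATA2. Between the DLX genes and GATA2, GATA3 or IRX1, r lay between -0.267 and 0.00957 over 45 libraries. Without HH6 replicate 1 these values lay between -0.384 and -0.0744, and in those 36 libraries between -0.328 and 0.0126. Over the 12 stage means, GATA2 and GATA3 had r = 0.917, whereas r was -0.023 for GATA2 and IRX1 and 0.279 for GATA3 and IRX1.

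**Figure D4:**
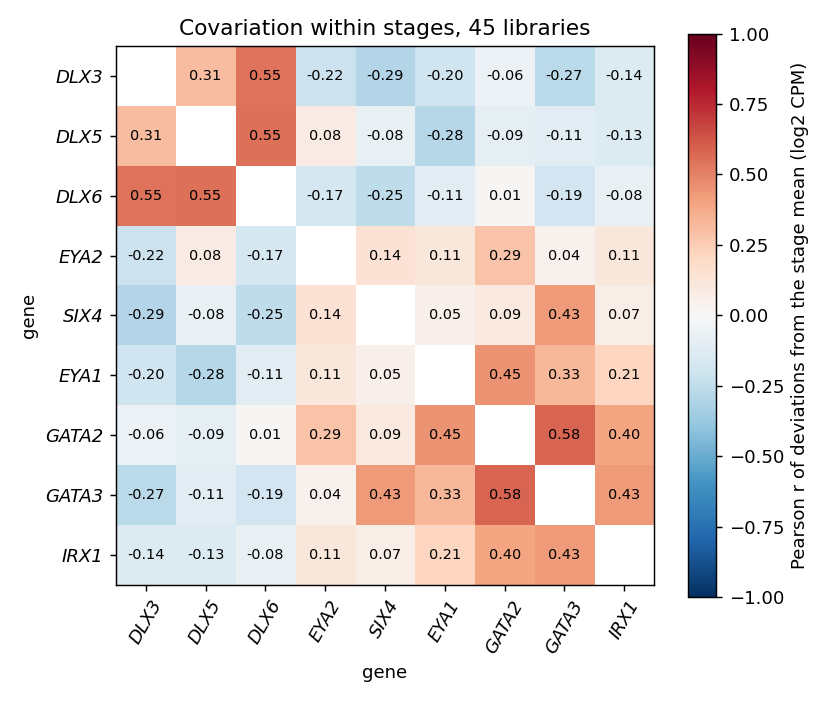
Pearson correlation between the 9 genes of their deviations from the stage mean, in log2 CPM over 45 libraries, on a scale from -1 (blue) to 1 (red), with the diagonal left blank. The DLX genes form a block of positive values in the upper left and GATA2, GATA3 and IRX1 a block in the lower right, and the values between the 2 blocks lie between -0.27 and 0.01. Outside the blocks, EYA1 with GATA2 (0.45) and SIX4 with GATA3 (0.43) are as high as values within them.

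The correlation of the DLX genes with the placode list, and of DLX6 with the neural crest list, rested largely on the libraries numbered 4. DLX6 had r = 0.653 with the placode list (6 of 7 markers matched) over 45 libraries and 0.223 over the 36 not numbered 4, and with the neural crest list 0.467 and 0.0377. The number 4 library was the lowest in the summed placode markers at 5 of 9 stages and the highest at none, and the same counts held for the neural crest markers. For DLX3 and the placode list r was 0.366 over 45 libraries and -0.0479 over 36, and for DLX5 it was 0.379 and 0.136. With the neural crest list DLX3 had 0.242 and 0.138, and DLX5 0.322 and 0.23. With the surface ectoderm list r was higher over the 36 for DLX5 (0.307 and 0.419) and DLX6 (0.0736 and 0.309). For DLX3 it was -0.0593 and -0.0535. EYA2 had 0.51 with the heart list over 45 libraries and 0.536 over 36.

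Genes with a course most like each member were sought among those with a symbol and a mean of at least 5 CPM, by the Pearson correlation of stage means over 12 stages. This r compares the shape of a course and not the size of the change. The 3 highest values were taken from 7822 or 7823 candidates per member and were not tested. For GATA2 they were CGN (r = 0.983), a tight junction protein, CSNK2A2 (0.983), a protein kinase subunit, and GJB6 (0.980), a gap junction protein. For GATA3 they were RBPMS2 (0.976), KALRN (0.974) and APELA (0.971), which encodes a peptide ligand of gastrulation. For EYA2 they were SNAP47 (0.951), VCL (0.934) and HAUS3 (0.930), and for IRX1 CPZ (0.924), AFMID (0.924) and LAP3 (0.917). For DLX5 they were SEPTIN9 (0.943), ATP6V0C (0.925) and TGIF1 (0.916), and for DLX3 NDUFV3 (0.923), C5H11ORF58 (0.915) and COX17 (0.889). The likeness was weaker for DLX6, SIX4 and EYA1, with NDUFB5 (0.870), SPC25 (0.850) and ITGB1BP3 (0.843) for DLX6, CD276 (0.855), ZDHHC23 (0.83) and ENKD1 (0.821) for SIX4, and PDE4B (0.785), PAXIP1 (0.680) and SENP2 (0.670) for EYA1. DLX3, SIX4 and EYA1 averaged less than 5 CPM, so they could not be listed for another member. None of the members above that level was among the 3 genes most like another member. The size of the change could differ: C5H11ORF58 averaged 408 CPM at HH5 and 423 at 10ss, and DLX3 3.44 and 5.53. CSNK2A2 averaged 106 CPM at HH5 and 35.6 at 10ss and GJB6 59.0 and 3.84, against 96.6 and 4.34 for GATA2.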

How the data were processed

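Bulk RNA-seq libraries were unstranded and paired-end. The authors mapped reads with STAR (2.7.2a in the processing notes, another version in the methods) to GRCg6a, and the methods give this mapping as the source of the counts. The deposited counts are whole reads per gene, unfiltered and with genes of at most 5 reads in every library removed, which left 18525 of 24356 genes. The deposited scaled signal equals CPM under TMM of those counts, computed here with edgeR 4.0.16. Fold changes come from edgeR's quasi-likelihood test on the counts of all 45 libraries (R 4.3.3), with 6 periods or 12 stages as groups, and were checked on simulated counts. DESeq2 1.42.0, other scalings, filters, models and thresholds, and leaving out each library, were alternatives. Correlations within stages without the libraries numbered 4 or without HH6 replicate 1 were added after seeing the data. Log2 CPM used a prior count of 2. Depth of 15.4 to 30.5 M reads (M, megareads) limits values at a few reads, such as EYA1. No pair of libraries of a stage differed by as little as sampling noise (chi-square per degree of freedom of 20.5 or more). Libraries are separate pools of embryos, and p-values of the fit of 12 stages measure the spread between pools. In the fit of periods, HH7, HH8 and HH9 each pool 3 stages. The spread behind its p-values therefore also holds differences between those stages. Replicate numbers are those of the sample titles, which for 10ss differ from the column names, and they did not pair libraries across stages. The library titled 10ss replicate 3 is number 4 in the column names and was kept among the libraries not numbered 4. Named genes were the 9 members, called genes of 2 lists (at most 3 in each direction, plus 6 close relatives) and the 3 genes most alike in course. One close relative counted in its list is not reported here by name. Members and lists were chosen with earlier results of these data known. Symbols came from the deposited table for 12245 genes and from RefSeq (GRCg7b) for 1136 more. No column of the tables was left out (0 unused).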

Additional observations from a re-analysis of the deposited data

Results flagged for a closer look

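In each group of 4 libraries of a stage, the highest or lowest library was compared with the rest by Dixon's ratio of its gap to the range, at the 95% level. Of 81 such groups over the 9 genes, 3 were past it, where chance gives about 4. DLX5 had 14.7 CPM in 1ss replicate 3, and 10.8 to 11 CPM in the other 1ss libraries. GATA3 had 440 CPM in 2ss replicate 1, and 207 to 232 CPM in the others. That library also had 213 CPM of mesoderm markers, where the others had 97.4 to 112. It was the highest at 2ss in other lists too: heart (14.5 CPM), endoderm (15.4), blood and vessel (42.6), and notochord and midline (12.1). In surface ectoderm markers it was the lowest (684 CPM). IRX1 had 41.6 CPM in 4ss replicate 4, and 21.6 to 22.5 CPM in the others.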

How the results depend on the processing

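Depth limits EYA1 and SIX4 most, since both held few reads per library, and the 3 libraries at HH10 limit every comparison with 10ss. Library size alone moved the median of all genes by -0.171 on the log2 scale at HH10 against HH5, against -0.065 under TMM, and other scalings by less than 0.1 in each comparison. The 7 members that changed over the 12 stages were the same under each other tool, scaling, filter and model tried, and 6 or 7 without 1 library, DLX5 being the one lost. Several counts of members called moved. At HH6 against HH5, 1 member (GATA2) was lower, and not 0, under DESeq2, median-of-ratios or upper quartile scaling, filterByExpr, only the compared periods, 12 stages as groups, the replicate block and a term for the libraries numbered 4. At HH7 against HH6, GATA2 alone (1) was lower under DESeq2 and the term for number 4, and 2 (GATA2 and GATA3) with 12 stages as groups. For GATA3 the edgeR fit of periods gave log2 -0.84 there (adjusted p 0.2), and -0.48 without HH6 replicate 1 (adjusted p 0.65). At HH8 against HH7, 0 members were higher under a test against a minimum fold change (glmTreat) and in the libraries numbered 1 to 3, and 1 was lower under glmTreat. At HH9 against HH8, glmTreat called 0 higher and 0 lower. At HH10 against HH9, 1 (IRX1) was higher with 12 stages as groups. At HH10 against HH5, 1 (IRX1) was higher under DESeq2, upper quartile scaling, filterByExpr, only the compared periods, 12 stages, the replicate block and the term for number 4, and 2 were lower under glmTreat. At HH10 against HH7, 1 was higher under glmTreat. Of the steps, 1 (DLX3 at 9ss against 8ss) was higher under DESeq2 and under the replicate block. The cause of these moves was not tested, except that glmTreat tests against a larger change by its construction. Shares of all genes called under these alternatives are not given.

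Leaving out each library in turn gave 0 to 1 members lower at HH6 against HH5, 0 to 1 lower at HH7 against HH6 (1 without 1ss replicate 1 or 2ss replicate 1), 0 to 1 higher at HH8 against HH7, and 1 to 2 higher at HH9 against HH8 (2 without 5ss replicate 4). It gave 0 to 1 higher (1 without HH5 replicate 1 or 10ss replicate 2) and 2 to 4 lower at HH10 against HH5 (2 without 10ss replicate 2), 1 to 2 higher and 2 to 3 lower at HH10 against HH7, and 1 to 3 lower steps. No called log2 fold change changed sign. For 43 further uncalled comparisons of a member, 60 of 1161 alternative values changed sign, where the reported log2 value was at most 0.35 from 0, and 1 was called (SIX4 at HH9 against HH8, without 5ss replicate 4).

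The replicate numbers did not pair the libraries. Deviations from the stage mean had a median r of 0.0424 between libraries of the same number and -0.0182 between different numbers, and 17 of 45 libraries correlated best with their own number. Between libraries both numbered 4, the median was 0.34. The replicate block moved the counts as given above and no other count by over 1.5 times. With a minimum of 1 CPM in place of 5 CPM, the gene most alike changed for SIX4 (CSPG4B, r = 0.885), GATA3 (SLC16A12, 0.981) and IRX1 (RBMS3, 0.930).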

Other observations

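SIX4 and EYA1 had low counts, and their variation within stages was set beside that of the GATA genes. The deviations from the stage mean had r = 0.426 for SIX4 and GATA3, 0.0943 for SIX4 and GATA2, 0.453 for EYA1 and GATA2, 0.331 for EYA1 and GATA3, and 0.0534 for SIX4 and EYA1 (45 libraries, description only). In the 36 libraries not numbered 4 these were 0.295, 0.026, 0.359, 0.221 and -0.119. IRX1 had r = 0.412 with the blood and vessel list, 0.328 with neural crest and 0.309 with neural plate and tube, and -0.348 with surface ectoderm (0.262, 0.357, 0.42 and -0.33 in those 36 libraries). With the mesoderm and heart lists IRX1 had 0.333 and 0.308 (0.234 and 0.254 in those 36 libraries). EYA1 had r = 0.359 with the mesoderm list, 0.233 with placode and -0.362 with surface ectoderm (0.349, 0.468 and -0.361 in those 36 libraries). The part of these tissues in the levels of IRX1 and EYA1 was not tested.

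The GATA2 and GATA3 values of 10ss replicate 1 (7.07 and 128 CPM) were the highest of the 3 libraries at that stage, as were its IRX1 (160 CPM) and EYA1 (2.02 CPM) values. That library also held the highest summed mesoderm markers at 10ss, with 90 CPM, where the others had 50.1 and 30 CPM. Other lists were highest in it too: blood and vessel (63.1 CPM), heart (4.84), endoderm (6.09), placode (130) and neural crest (1430). Its surface ectoderm markers were the lowest at 10ss (315 CPM). The part of any of these tissues in its values was not tested.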
